A study of Mus musculus with 12 samples.

Results

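The 9 genes described here encode the 5 subunits of the transcription factor NF-kB (*Nfkb1*, *Nfkb2*, *Rel*, *Rela*, and *Relb*) and 4 proteins that hold the pathway back (*Nfkbia*, *Nfkbib*, *Nfkbie*, and *Tnfaip3*). They were chosen by name, as rows of the deposited table of read counts, and they are 9 of its 55536 genes. RNA was sequenced from C2C12-GFP cells, a line of mouse skeletal myoblasts that carries green fluorescent protein and fuses into myotubes in low-serum medium. The cells differentiated on uncoated plates (control) or on plates coated with Collagen I, with fibronectin, or with Geltrex™, and each of these 4 groups had 3 samples. Collagen I and fibronectin were single proteins laid down at the same mass per area, whereas Geltrex™ is a mixed basement membrane matrix made mainly of laminin, Collagen IV, and entactin. All groups share 1 established cell line without nerve, vessel, or immune cells, and the time point of the sequenced RNA is not stated. The study compared the coatings to learn how the matrix affects the fiber type of myotubes, and it lists NF-kB among the regulators it examined.

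NF-kB works as a pair of subunits that waits in the cytoplasm. Inhibitors of the IkB family (*Nfkbia*, *Nfkbib*, and *Nfkbie* encode IkB alpha, beta, and epsilon) cover the pair until a signal from a cytokine or a microbial product activates the IkB kinases, which mark the inhibitor for destruction and free the pair to enter the nucleus. The genes for IkB alpha and for A20 (*Tnfaip3*), an enzyme that edits ubiquitin chains on upstream signaling proteins, are themselves classic targets of NF-kB, so that their products shut the pathway down again, and in skeletal muscle the pathway is known for its part in wasting, inflammation, and the restraint of myoblast differentiation.

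Total counts lay between 22520404 and 27351766 per sample. The 9 genes had between 144 counts (*Nfkbie*) and 3630 counts (*Nfkb1*) in a sample, and all 9 passed the filter on low counts, as did 14499 genes in all. The cell label held, since the muscle marker *Des*, encoding desmin, had 20080 or more counts in every library. The summed level of 8 muscle markers was between 6784 and 7673 CPM (counts scaled to a common library size) in the control, between 7370 and 7535 on Collagen I, between 2275 and 2653 on fibronectin, and between 3121 and 3385 on Geltrex™. The summed level of 6 proliferation markers was between 207 and 286 CPM in the control and Collagen I samples and between 608 and 779 CPM in the fibronectin and Geltrex™ samples. Among 8 leukocyte markers only *Cd14* and *Cd68* passed the filter, *Adgre1* had 0 counts in all 12 samples (3 counts are at most 0.135 CPM in a library), and *Ptprc* had at most 1. The 3 Geltrex™ samples resembled each other far more than other replicates did: the mean chi-square per gene between 2 samples of a group lay between 2.23 and 4.87 for Geltrex™ and between 8.31 and 71.8 for the other groups, where sampling noise alone gives about 1. The labels do not say whether the samples of a group came from separate cultures, so p-values measure the spread between these samples, which may be technical.

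Promoter sequence was searched for matches to a binding sequence of NF-kB itself. RefSeq (GRCm38.p6) windows from 250 bases before to 50 bases after a transcription start were at hand for 7 of the 9 genes, which leaves *Nfkb1* and *Relb* without one. The kB consensus, a motif of 10 letters searched on both strands, matched in the windows of 5 of these 7 genes (*Tnfaip3*, *Nfkbia*, *Nfkb2*, *Rel*, and *Nfkbie*) and in none of those of *Rela* and *Nfkbib*. Over the table it matched in 1388 of 27025 genes (5.14%) and in 1480 of 32851 windows (4.51%). The 4 windows below are shown because *Tnfaip3* and *Nfkbia* varied most between the coatings, while *Nfkb2* and *Rel* moved in opposite directions between fibronectin and Collagen I. They lie at chr10:19015361-19015660 on the minus strand (*Tnfaip3*), chr12:55492598-55492897 on the minus strand (*Nfkbia*), chr19:46304487-46304786 on the plus strand (*Nfkb2*), and chr11:23770920-23771219 on the minus strand (*Rel*). Each is written 5′ to 3′ along its gene, and capitals mark the matches.
*Tnfaip3*: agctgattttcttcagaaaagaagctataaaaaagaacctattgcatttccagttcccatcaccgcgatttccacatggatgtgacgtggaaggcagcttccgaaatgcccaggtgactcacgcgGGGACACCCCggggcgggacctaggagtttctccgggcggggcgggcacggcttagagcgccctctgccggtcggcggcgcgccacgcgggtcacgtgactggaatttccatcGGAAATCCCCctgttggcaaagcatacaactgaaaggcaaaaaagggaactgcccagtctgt
*Nfkbia*: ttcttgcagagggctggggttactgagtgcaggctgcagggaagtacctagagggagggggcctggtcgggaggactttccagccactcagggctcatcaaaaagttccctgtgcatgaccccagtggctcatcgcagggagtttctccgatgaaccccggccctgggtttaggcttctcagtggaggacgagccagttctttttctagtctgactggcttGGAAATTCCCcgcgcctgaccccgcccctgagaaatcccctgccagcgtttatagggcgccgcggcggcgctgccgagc
*Nfkb2*: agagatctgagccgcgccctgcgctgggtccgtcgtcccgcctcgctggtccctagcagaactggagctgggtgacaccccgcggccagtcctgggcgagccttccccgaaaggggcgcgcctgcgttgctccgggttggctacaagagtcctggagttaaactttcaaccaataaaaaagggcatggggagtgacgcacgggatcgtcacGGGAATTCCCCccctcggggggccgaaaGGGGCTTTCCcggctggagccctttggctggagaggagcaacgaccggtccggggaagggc
*Rel*: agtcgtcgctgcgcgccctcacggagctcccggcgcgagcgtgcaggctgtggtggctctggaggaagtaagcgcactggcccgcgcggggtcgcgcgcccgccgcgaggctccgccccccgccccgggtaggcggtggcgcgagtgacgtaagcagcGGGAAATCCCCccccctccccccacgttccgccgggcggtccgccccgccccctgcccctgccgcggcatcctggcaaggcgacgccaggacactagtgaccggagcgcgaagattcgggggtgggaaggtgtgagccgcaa
The *Tnfaip3* window held 2 matches, which begin 125 and 12 bases before the start. In *Nfkbia* the single match, GGAAATTCCC, begins 29 bases before the start. In *Nfkb2* the run of capitals 39 bases before the start holds overlapping matches on both strands and a second run begins 11 bases before the start, and in *Rel* overlapping matches begin 92 and 91 bases before the start. Another window of *Tnfaip3* held 0 matches, and further windows of *Nfkb2*, not shown, held matches too. A match describes the letters of the window and does not show that NF-kB bound there in these cells. A window without a match does not show that the gene lacks such a sequence elsewhere or in another form.

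Levels of different genes were compared per kb of transcript. *Nfkb1*, whose p105 product is cut to the p50 subunit, and *Rela*, which encodes the p65 subunit that activates transcription, were the most abundant of the 9, and *Rel*, which encodes the c-Rel subunit best known from lymphocytes, had the lowest mean in all 4 groups, although its range overlapped that of *Nfkbie* on fibronectin. In the control, *Nfkb1* stood at 26.7 ± 1.37 CPM per kb (SD, n = 3) and *Rela* at 24.1 ± 0.625, and their ranges did not overlap. On Collagen I this order turned, with *Rela* at 24.7 ± 2.01 and *Nfkb1* at 23.6 ± 1.96 CPM per kb, but the ranges overlapped. On fibronectin *Nfkb1* reached 32.3 ± 1.13 CPM per kb against 22 ± 1.16 for *Rela*. *Nfkb2*, which encodes p100, the precursor of p52, and *Nfkbia* came next with overlapping ranges in the control, on Collagen I, and on fibronectin, whereas on Geltrex™ *Nfkbia* at 23.9 ± 1.49 CPM per kb stood above *Nfkb2* at 17.8 ± 0.996. *Tnfaip3* and *Relb*, which encodes the partner of p52, overlapped in the control, on Collagen I, and on fibronectin. On Geltrex™ they stood apart, with *Tnfaip3* at 13.3 ± 0.723 CPM per kb and *Relb* at 7.41 ± 0.306. *Nfkbib* and *Nfkbie* were low throughout, between 2.52 and 4.79 CPM per kb as group means, and *Rel* lay between 1.28 and 2.15 CPM per kb. This order rests on the length of the principal transcript. Over all annotated exons the mean of *Nfkb1* would be 9.91 CPM per kb in place of 29.0. That is below *Rela* at 21.9, *Nfkbia* at 17.4, and *Nfkb2* at 11.8.

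**Figure D1:**
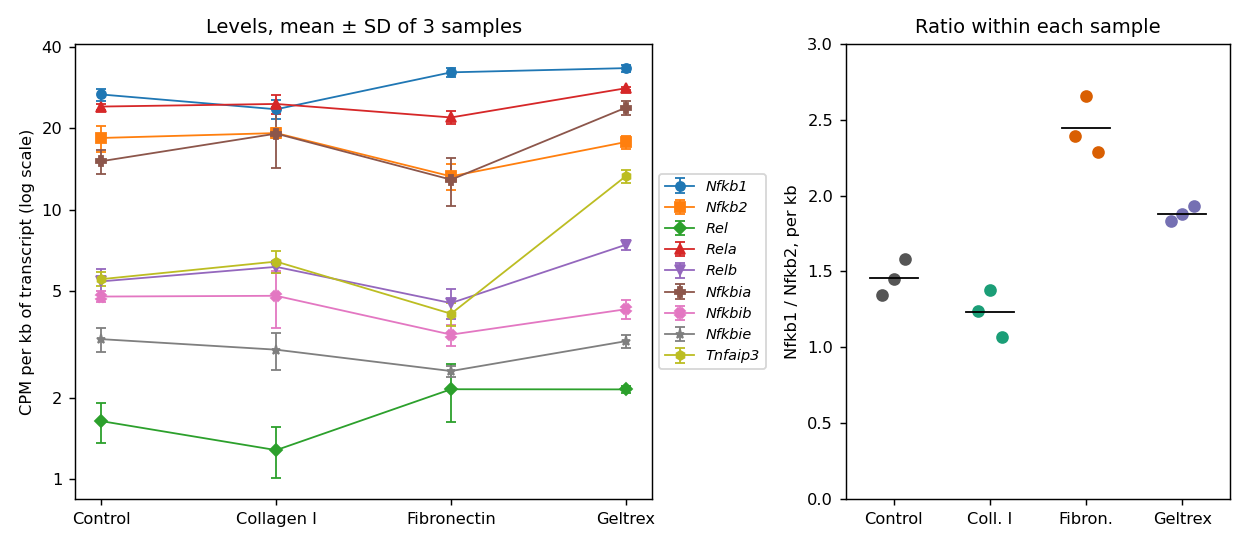
The left panel plots the level of each of the 9 genes in CPM per kb of principal transcript on a log axis, as the mean and SD of 3 samples in each of the 4 groups, with lines that only join the values of a gene. The right panel plots the ratio of *Nfkb1* to *Nfkb2* per kb in each sample with the group mean as a bar. *Tnfaip3* climbs away from *Relb* on Geltrex™, and the ratio is highest on fibronectin, between 2.29 and 2.66.

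The make-up of the subunit transcripts is described here without a test. The ratio of *Nfkb1* to *Nfkb2* per kb was 1.34, 1.45, and 1.58 in the control samples, 1.24, 1.38, and 1.07 on Collagen I, 2.39, 2.66, and 2.29 on fibronectin, and 1.83, 1.88, and 1.93 on Geltrex™. The control and Collagen I samples overlapped, and the fibronectin and the Geltrex™ samples each stood apart from all other groups. As a share of all subunit transcripts per kb, *Nfkb1* made up 35.0% ± 1.08 in the control, 31.5% ± 2.77 on Collagen I, 43.6% ± 0.814 on fibronectin, and 37.6% ± 0.485 on Geltrex™ (SD, n = 3). *Nfkb2* made up 24.1% ± 1.68, 25.7% ± 1.01, 17.9% ± 1.26, and 20.0% ± 0.757 in the same order. The share of *Rela* stayed between 29.6% and 32.9% as group means, and that of *Rel* between 1.71% and 2.93%. The ratio and the shares rest on the principal transcripts. Per kb of all annotated exons the ratio of *Nfkb1* to *Nfkb2* lay between 0.670 and 0.789 in the control, 0.533 and 0.686 on Collagen I, 1.14 and 1.32 on fibronectin, and 0.914 and 0.963 on Geltrex™, so which of the genes is the more abundant depends on the length used.

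Among the subunits, *Nfkb1* (chromosome 3, 135584655 to 135691547, GRCm38) was at 109, 116, and 105 CPM in the control, 97.0, 105, and 89.0 on Collagen I, 135, 128, and 137 on fibronectin, and 143, 137, and 134 on Geltrex™. Every fibronectin and Geltrex™ sample lay above every control and Collagen I sample. *Rel* (chromosome 11, 23736847 to 23770970) was at 10.1, 14.2, and 12.4 CPM in the control, 10.3, 11.1, and 7.25 on Collagen I, 16.5, 19.7, and 12 on fibronectin, and 15.8, 15.7, and 16.6 on Geltrex™. It followed the same order, although 1 fibronectin sample fell among the control samples. Its spread was wide, with a coefficient of variation (CV) of 24.1% on fibronectin. *Rela* (chromosome 19, 5637483 to 5648130) had the narrowest range between group means of the 9 genes, 0.36 on the log2 scale, at 66.7, 63.6, and 66.3 CPM in the control, 62.7, 65.2, and 73.1 on Collagen I, 56.9, 59.0, and 63.1 on fibronectin, and 75.7, 76.7, and 77.4 on Geltrex™. Its 3 Geltrex™ samples lay above all other samples.

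The subunits of the alternative branch, in which p100 is cut to p52 and pairs with RelB, did not share an order of groups. Group means of *Relb* ran in the same order as those of *Rela*, and those of *Nfkb2* did not. *Nfkb2* (chromosome 19, 46304320 to 46312385) was at 62.0, 61.2, and 50.6 CPM in the control, 59.6, 58.2, and 63.4 on Collagen I, 43.0, 36.7, and 45.6 on fibronectin, and 59.3, 55.6, and 53.1 on Geltrex™. Its fibronectin samples lay below all others, and the remaining groups overlapped. Of its exons, 11.6% overlap *AC114539.1* (38 to 102 counts) and 6.52% overlap *Psd* (150 to 409 counts) on the opposite strand, and whether the counting used the strand is not given in the sources used here. *Relb* (chromosome 7, 19606217 to 19629438) was at 13.4, 11.4, and 11.0 CPM in the control, 14.0, 12.8, and 13.8 on Collagen I, 9.43, 9.0, and 11.4 on fibronectin, and 16, 17.1, and 16 on Geltrex™. Its Geltrex™ samples were the highest, and its fibronectin samples overlapped the control samples in 1 sample.

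Of the inhibitors, *Tnfaip3* (chromosome 10, 19000910 to 19015657) showed the widest range between groups of the 9 genes, 1.70 on the log2 scale. It was at 26.0, 24.1, and 23.1 CPM in the control, 31.1, 28.4, and 25.6 on Collagen I, 17.2, 17.1, and 20.2 on fibronectin, and 61.7, 55.4, and 59.5 on Geltrex™. The Geltrex™ samples stood far above the rest and the fibronectin samples below, while the control and Collagen I samples overlapped. *Nfkbia* (chromosome 12, 55489410 to 55492647) came second with a range of 0.90 on the log2 scale. It was at 26.5, 21.8, and 23.2 CPM in the control, 25.5, 26.2, and 39.0 on Collagen I, 19.9, 16.5, and 24.7 on fibronectin, and 39.9, 38.0, and 35.2 on Geltrex™. Collagen I replicate 3 reached the level of the Geltrex™ samples, and this sample also had the highest score on the third principal component of log2 CPM (30.9, next to 18.1 for fibronectin replicate 3).

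The other IkB genes were low in all groups. *Nfkbib* (chromosome 7, 28758251 to 28767512) was at 9.55, 9.5, and 10.4 CPM in the control, 9.49, 7.73, and 12.4 on Collagen I, 7.76, 6.95, and 6.52 on fibronectin, and 8.07, 9.48, and 8.84 on Geltrex™. Its Collagen I samples spanned the values of the control and Geltrex™ samples and reached into those on fibronectin. On the opposite strand 14.5% of its exons overlap *Ccer2* (0 counts) and 1.94% overlap *Sirt2* (1314 to 1919 counts). *Nfkbie* (chromosome 17, 45555703 to 45563169) was at 8.95, 7.34, and 7.86 CPM in the control, 8.67, 6.54, and 6.86 on Collagen I, 5.91, 6.03, and 6.45 on fibronectin, and 8.37, 7.83, and 7.53 on Geltrex™. The fibronectin samples of *Nfkbie* lay below all others, and those of *Nfkbib* overlapped only 1 Collagen I sample. The fibronectin group had the lowest mean for 7 of the 9 genes, all but *Nfkb1* and *Rel*, and Geltrex™ had the highest mean of log2 CPM for 6, all but *Nfkb2*, *Nfkbib*, and *Nfkbie*. For *Rel* that lead was within the spread, with 16.1 CPM as the mean of both Geltrex™ and fibronectin. These counts of highest and lowest groups have no share over all genes tested beside them. Some of the differences behind them were not called, such as *Rela* on fibronectin against the control. The CV of the 9 genes had a median of 5.40% on Geltrex™, with a range of 1.11% to 7.98%, and a median between 9.61% and 10.1% in each of the other groups. The highest CV was 16.8% in the control, 25.2% on Collagen I, and 24.1% on fibronectin.

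**Figure D2:**
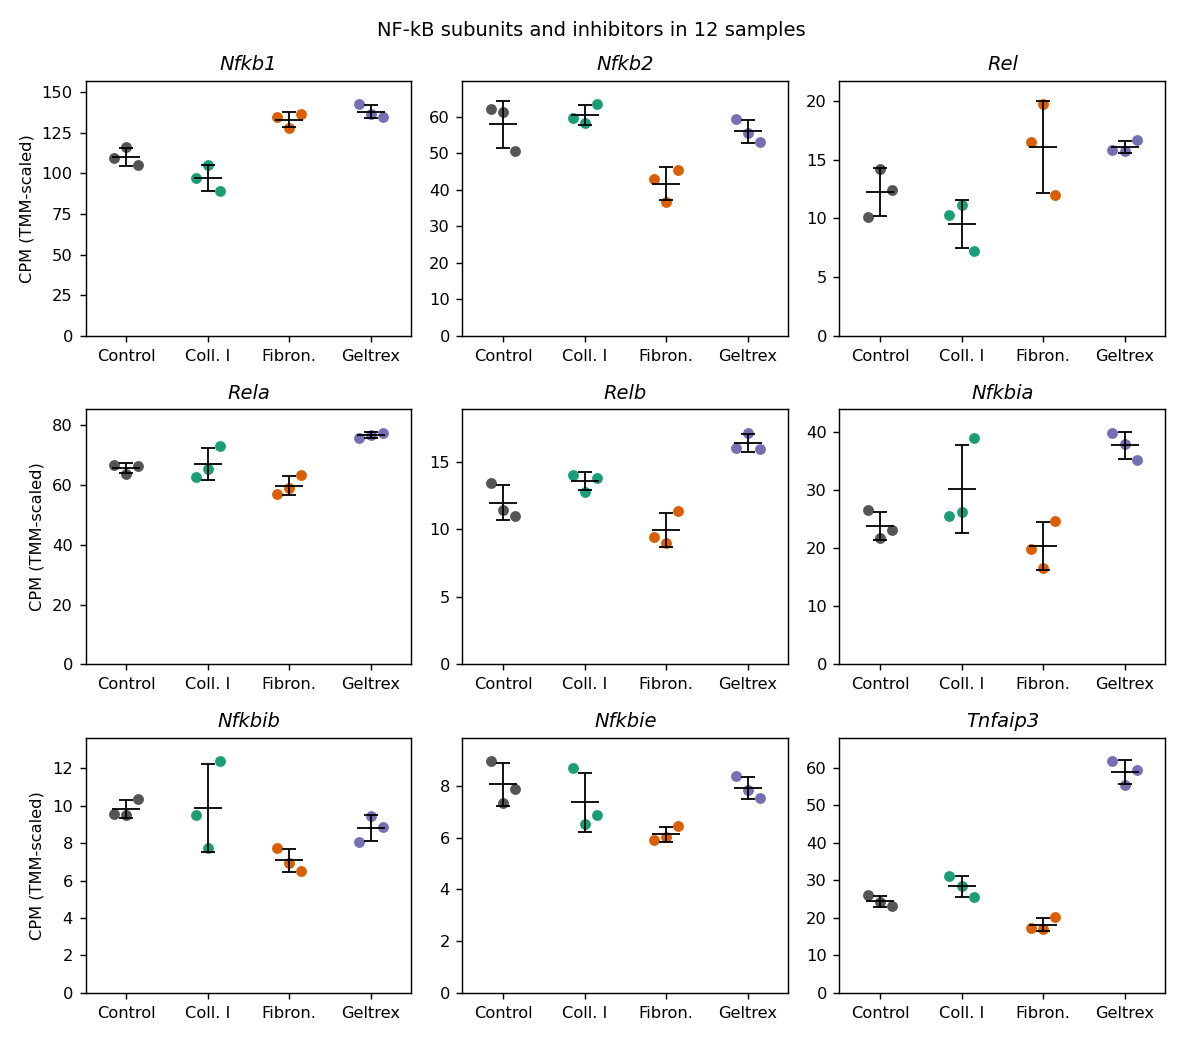
Each panel plots the TMM-scaled CPM of 1 gene in each of the 12 samples by group, with the mean as a long bar and the SD of 3 samples as whiskers, on an axis that starts at 0. *Tnfaip3* on Geltrex™ lies between 55.4 and 61.7 CPM, above all other samples, and *Nfkb1* separates the fibronectin and Geltrex™ samples from the control and Collagen I samples.

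The first comparison asks what Geltrex™ changed against uncoated plates. *Tnfaip3* rose most, by 1.27 ± 0.095 on the log2 scale (SE), a 2.41-fold difference (adjusted p = 7.86e-08, from edgeR's quasi-likelihood fit after Benjamini-Hochberg correction over 14499 genes). *Nfkbia* rose 1.58-fold (log2 0.66 ± 0.16, adjusted p = 0.00423), *Relb* 1.37-fold (log2 0.45 ± 0.11, adjusted p = 0.00606), *Nfkb1* 1.25-fold (log2 0.32 ± 0.077, adjusted p = 0.00413), and *Rela* 1.17-fold (log2 0.23 ± 0.076, adjusted p = 0.0318). Thus 5 of 9 genes were called higher and none lower, where 33.0% of all genes tested were called in either direction and 16.4% were called higher. Their median log2 fold change was 0.32, against -0.012 over all genes tested. *Tnfaip3* was also the 1 gene of the 9 past a fold of 2, as were 9.14% of all genes tested in either direction. *Rel* at 0.39 (95% interval 0.01 to 0.77, adjusted p = 0.108) did not pass. Nor did *Nfkb2* at -0.05 (-0.26 to 0.16), *Nfkbib* at -0.16 (-0.47 to 0.16), and *Nfkbie* at -0.02 (-0.30 to 0.26). With the 3 Geltrex™ samples summed into 1, since they were so alike, *Tnfaip3* alone was called, and adjusted p was 0.105 for *Nfkb1*, 0.253 for *Rela*, 0.0866 for *Relb*, and 0.0647 for *Nfkbia*. The call of *Rela* was also lost when any 1 of the 6 samples was left out (adjusted p from 0.0559 without Control replicate 1 to 0.0909 without Geltrex replicate 3).

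Fibronectin was next compared with uncoated plates. *Nfkb1* rose 1.21-fold (log2 0.27 ± 0.077, adjusted p = 0.0135). *Nfkb2* fell to 0.720 of the control level (log2 -0.47 ± 0.098, adjusted p = 0.00178), *Tnfaip3* to 0.744 (log2 -0.43 ± 0.098, adjusted p = 0.00371), *Nfkbib* to 0.723 (log2 -0.47 ± 0.15, adjusted p = 0.0276), and *Nfkbie* to 0.762 (log2 -0.39 ± 0.13, adjusted p = 0.035). So 1 of 9 genes was called higher and 4 lower, where 31.9% of all genes tested were called, 17.1% higher and 14.7% lower. Their median log2 fold change was -0.27, against -0.016 over all genes tested, and none passed a fold of 2, as 6.66% of all genes tested did. *Rel* (0.39, 95% interval 0.01 to 0.77), *Rela* (-0.13, -0.30 to 0.03), *Relb* (-0.27, -0.51 to -0.02), and *Nfkbia* (-0.23, -0.57 to 0.11) did not pass. The calls other than *Nfkb2* and *Tnfaip3* were lost when certain samples were left out. Their log2 fold changes kept their sign, at 0.24 to 0.32 for *Nfkb1*, -0.53 to -0.40 for *Nfkbib*, and -0.45 to -0.31 for *Nfkbie* over the samples left out. For *Nfkb1* the adjusted p was 0.0527 without Control replicate 3. For *Nfkbib* it was 0.0558, 0.0766, 0.0724, and 0.0813 without Control replicates 1 and 3 and fibronectin replicates 2 and 3, and for *Nfkbie* it was 0.155, 0.0574, 0.107, and 0.0855 without Control replicates 1 and 3 and fibronectin replicates 1 and 2. Without fibronectin replicate 3, *Rel* (adjusted p = 0.0164) and *Relb* (adjusted p = 0.0275) passed.

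Geltrex™ and fibronectin were then set against each other. The 2 groups had close levels of *Nfkb1* (log2 fold change 0.05, 95% interval -0.11 to 0.22) and of *Rel* (-0.00, -0.37 to 0.37), with no call for either. *Tnfaip3* was 3.24-fold higher on Geltrex™ (log2 1.70 ± 0.097, adjusted p = 7.65e-09), *Nfkbia* 1.85-fold (log2 0.89 ± 0.16, adjusted p = 0.000949), *Relb* 1.65-fold (log2 0.72 ± 0.11, adjusted p = 0.000358), *Nfkb2* 1.34-fold (log2 0.42 ± 0.098, adjusted p = 0.0063), and *Rela* 1.28-fold (log2 0.36 ± 0.076, adjusted p = 0.00345). These 5 of 9 genes were called higher, where 19.3% of all genes tested were called in either direction and 9.06% were called higher. Past a fold of 2 there was 1 of the 9, *Tnfaip3*, where 3.98% of all genes tested were. *Nfkbib* (0.31, -0.01 to 0.64) and *Nfkbie* (0.37, 0.08 to 0.65) did not pass. With the Geltrex™ samples summed into 1, the calls of *Nfkb2* (adjusted p = 0.140) and *Rela* (adjusted p = 0.134) were lost. The summed muscle markers and proliferation markers of these 2 groups were nearer to each other than to those of the control. Their muscle sums still did not overlap, at 2275 to 2653 CPM on fibronectin and 3121 to 3385 CPM on Geltrex™. The part of these marker differences in the levels of the 9 genes was not tested.

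On Collagen I against uncoated plates none of the 9 genes was called, where 1.12% of all genes tested were called. Unadjusted p was under 0.05 for 3 of them, *Nfkb1* (log2 -0.18, 95% interval -0.35 to -0.02), *Nfkbia* (0.34, 0.00 to 0.68), and *Tnfaip3* (0.22, 0.01 to 0.42), as it was for 14.8% of all genes tested, and DESeq2 also called 0. The value of *Nfkbia* dropped to 0.11 without Collagen I replicate 3.

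The study's main contrast was between Collagen I and the other 2 coatings. On fibronectin against Collagen I, *Rel* rose 1.68-fold (log2 0.75 ± 0.18, adjusted p = 0.00371) and *Nfkb1* 1.37-fold (log2 0.46 ± 0.077, adjusted p = 0.000265). *Tnfaip3* fell to 0.640 of the Collagen I level (log2 -0.64 ± 0.097, adjusted p = 9.45e-05), *Nfkb2* to 0.691 (log2 -0.53 ± 0.098, adjusted p = 0.000488), *Relb* to 0.735 (log2 -0.44 ± 0.12, adjusted p = 0.00571), *Nfkbia* to 0.676 (log2 -0.57 ± 0.16, adjusted p = 0.00943), and *Nfkbib* to 0.720 (log2 -0.47 ± 0.15, adjusted p = 0.019). So 7 of 9 genes were called, 2 higher and 5 lower, where 45.0% of all genes tested were called, 22.9% higher and 22.1% lower. None of the 9 passed a fold of 2, as 8.46% of all genes tested did. *Rela* at -0.17 (-0.33 to -0.00) and *Nfkbie* at -0.26 (-0.55 to 0.03) did not pass. Without Collagen I replicate 3 the calls of *Nfkbia* (log2 -0.34, adjusted p = 0.0552) and *Nfkbib* (log2 -0.28, adjusted p = 0.116) were lost, and without fibronectin replicate 2 they were lost too (adjusted p = 0.0513 and 0.0521). That of *Nfkbib* was also lost without fibronectin replicate 3 (adjusted p = 0.0605).

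On Geltrex™ against Collagen I, *Tnfaip3* was 2.08-fold higher (log2 1.05 ± 0.094, adjusted p = 4.62e-07), *Rel* 1.68-fold (log2 0.75 ± 0.18, adjusted p = 0.00464), and *Nfkb1* 1.42-fold (log2 0.51 ± 0.077, adjusted p = 0.000106). These 3 of 9 genes were called higher and none lower, where 37.1% of all genes tested were called in either direction and 19.0% were called higher. *Tnfaip3* was the 1 gene of the 9 past a fold of 2, where 9.32% of all genes tested were. *Rela* (0.19, 95% interval 0.03 to 0.36, adjusted p = 0.0561), *Relb* (0.27, 0.03 to 0.51), *Nfkbia* (0.32, -0.01 to 0.65), *Nfkb2* (-0.11, -0.32 to 0.10), *Nfkbib* (-0.16, -0.48 to 0.16), and *Nfkbie* (0.11, -0.18 to 0.39) did not pass. Without Collagen I replicate 3, *Nfkbia* (adjusted p = 0.00558) and *Rela* (adjusted p = 0.0133) passed, which brought the count to 5. With the Geltrex™ samples summed into 1, the call of *Rel* was lost (adjusted p = 0.0689).

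**Figure D3:**
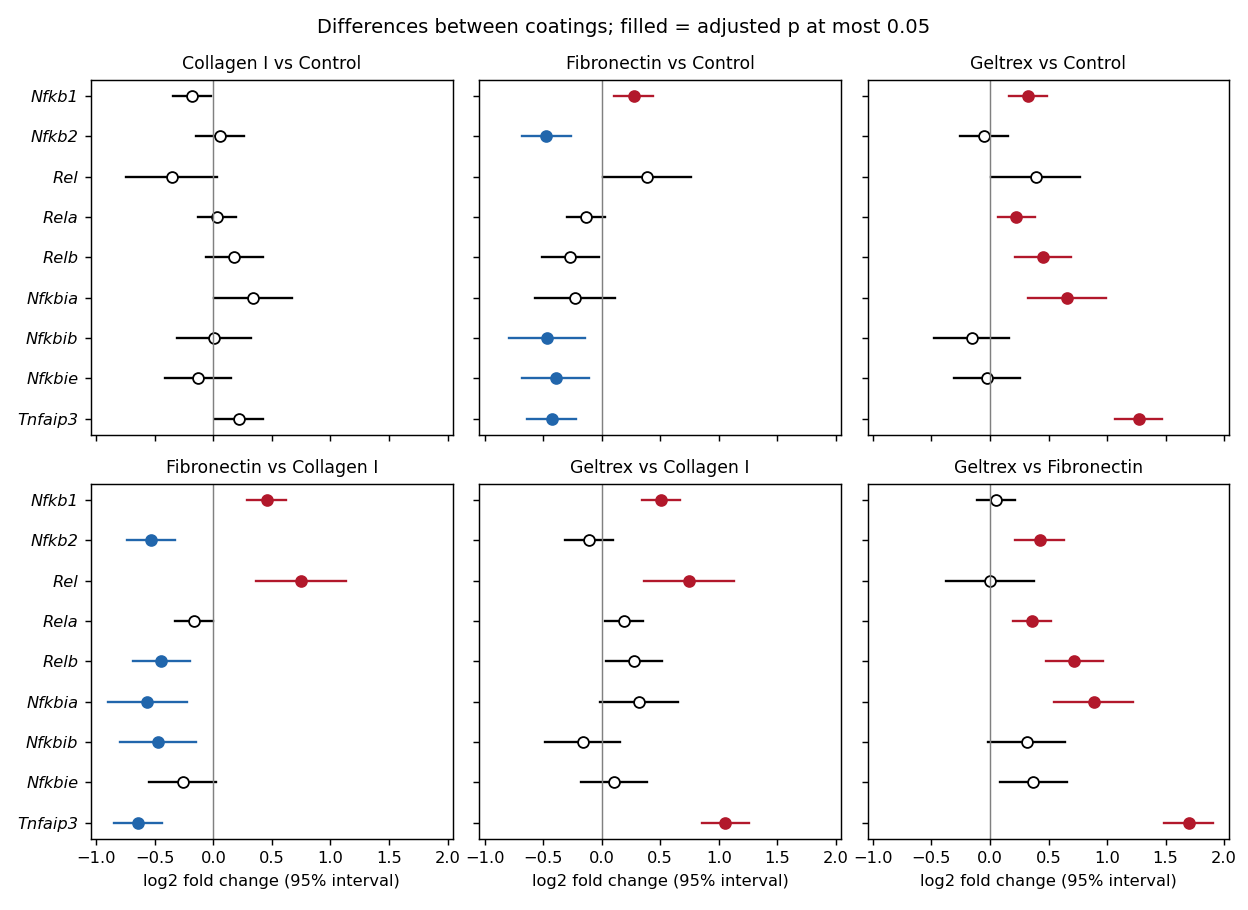
Each panel plots the log2 fold change of the 9 genes in 1 of the 6 comparisons, with its 95% interval before adjustment as a line. Filled points, red for higher and blue for lower, had an adjusted p of at most 0.05. *Tnfaip3* reaches 1.27 on Geltrex™ against the control and 1.70 against fibronectin, and no point is filled for Collagen I against the control.

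Across the comparisons *Tnfaip3* was called higher in all 3 with Geltrex™ and lower in both of fibronectin against the control and Collagen I, and *Nfkb1* was called higher on fibronectin and on Geltrex™ against either of the other groups. The comparisons share samples, so they are not independent of each other. The fibronectin and Geltrex™ groups, in which *Nfkb1* was higher, also had the lower summed muscle markers and the higher summed proliferation markers, and the summed level of 5 fibroblast markers was also lower there (between 1993 and 2317 CPM on fibronectin and between 1744 and 1803 on Geltrex™, against 2441 to 2951 in the control and 2532 to 2737 on Collagen I). Most of the fibroblast sum was *Dcn*, whose mean was lower on both coatings, as were those of *Lum*, *Ly6a*, and *Col1a1*. The mean of *Pdgfra* did not follow, at 38.3 CPM in the control, 27.2 on Collagen I, 37.1 on fibronectin, and 42.9 on Geltrex™. The part of these marker differences in the levels of *Nfkb1* was not tested. In RNA from whole cultures, fewer cells of a type and less RNA per cell cannot be told apart.

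Genes on either side of NF-kB in the pathway were counted from 4 lists. Of 18 ligands and receptors 12 passed the filter. *Tnf*, which encodes the cytokine best known for switching the pathway on, had at most 2 counts in a library and was not tested. On Geltrex™ against the control 4 of the 12 were higher (*Il1r1*, *Tlr2*, *Tlr3*, and *Il1rap*) and 1 lower (*Tnfrsf1b*), and on fibronectin 2 were higher (*Tlr3* and *Il1rap*) and none lower. Of all genes tested, 33.0% were called on Geltrex™ (16.4% higher) and 31.9% on fibronectin (17.1% higher). *Tlr3*, a receptor for double-stranded RNA, was at 3.86, 4.92, and 4.63 CPM in the control and 10.3, 8.53, and 11.5 CPM on Geltrex™ (log2 1.17 ± 0.19, adjusted p = 0.000156). On fibronectin *Tlr3* was at 6.39, 7.54, and 5.86 CPM (log2 0.56 ± 0.19, adjusted p = 0.0344), a call that was lost without Control replicate 1 (adjusted p = 0.133) or 3 (0.0599) and without fibronectin replicate 1 (0.0655) or 2 (0.129). *Il1rap*, a subunit of the interleukin-1 receptor, was at 8.31, 11.7, and 13.1 CPM in the control, 21.8, 25.5, and 17.7 on fibronectin (log2 0.98 ± 0.16, adjusted p = 0.000281), and 19.6, 19.6, and 19.9 on Geltrex™ (log2 0.84 ± 0.16, adjusted p = 0.000812). Of 24 adaptors and kinases 23 passed the filter, and on Geltrex™ 4 were higher (*Traf5*, *Traf6*, *Tab3*, and *Ripk1*) and 1 lower (*Tab1*), while on fibronectin 5 were higher (*Traf6*, *Ikbkg*, *Tab3*, *Ripk1*, and *Chuk*) and 2 lower (*Traf2* and *Birc2*). Thus 5 of 23 were called on Geltrex™ and 7 of 23 on fibronectin, shares no higher than those of all genes tested. The genes of these adaptors were named after their values were seen, as were *Il1r1*, *Tlr2*, and *Tnfrsf1b*. The median log2 fold changes of both lists lay between -0.07 and 0.13 in these 2 comparisons.

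Of 18 other inhibitors and atypical IkB proteins 17 passed the filter, and on Geltrex™ against the control 4 were higher (*Nfkbiz*, *Zc3h12a*, *Cyld*, and *Tnip1*) and 3 lower (*Otud7b*, *Rnf11*, and *Nkiras1*), with a median log2 fold change of -0.09, where 33.0% of all genes tested were called and 16.4% were higher. On fibronectin against the control 1 was higher (*Cyld*) and 3 were lower (*Rnf11*, *Nkiras1*, and *Tnip1*), with a median of -0.11, where 31.9% of all genes tested were called. The genes other than *Nfkbiz* and *Zc3h12a* were named after their values were seen. *Nfkbiz*, which encodes a nuclear IkB protein that helps NF-kB at some promoters, was at 17.9, 9.76, and 11.9 CPM in the control, 11.7, 10.6, and 14.8 on Collagen I, 10.7, 8.21, and 14.0 on fibronectin, and 51.6, 46.6, and 49.2 on Geltrex™. Only its Geltrex™ samples stood apart (log2 1.90 ± 0.20 against the control, adjusted p = 2.37e-06). *Zc3h12a*, which encodes an RNase that degrades cytokine transcripts, was at 8.67, 7.19, and 5.90 CPM in the control and 19.9, 15.8, and 16 CPM on Geltrex™ (log2 1.25 ± 0.15, adjusted p = 8.63e-06).

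Of 30 textbook target genes of NF-kB 21 passed the filter, but 5 of these (*Mmp9*, *Ptx3*, *Cxcl10*, *Saa3*, and *Ccl5*) passed only through the Geltrex™ samples, where they were high, so their difference was fixed by the filter and they are left out of the counts. Of the remaining 16, 8 were higher on Geltrex™ against the control and 1 was lower (*Irf1*), with a median log2 fold change of 0.48. Of all genes tested, 33.0% were called and 16.4% were higher. Past a fold of 2 were 5 of the 16, all higher, where 9.14% of all genes tested were in either direction. On fibronectin against the control 3 of the 16 were higher (*Cflar*, *Vcam1*, and *Ccnd1*) and 4 lower (*Bcl2l1*, *Cxcl1*, *Ccl2*, and *Ccl7*), with a median of -0.24, where 17.1% of all genes tested were higher and 14.7% lower. *Irf1*, *Cflar*, *Vcam1*, *Ccnd1*, *Bcl2l1*, and the genes that passed only through Geltrex™ other than *Saa3* were named after their values were seen. Some of the listed genes, such as *Ccnd1*, are also targets of other factors. *Ccl2*, encoding a chemokine that draws monocytes, was at 13.6, 12.7, and 15.6 CPM in the control, 6.05, 5.78, and 7.61 on fibronectin, and 117, 96.8, and 98.2 on Geltrex™. It rose by 2.90 ± 0.12 on Geltrex™ (adjusted p = 4.22e-10) and fell by 1.11 on fibronectin on the log2 scale (adjusted p = 1.41e-05). *Ccl7*, a chemokine of the same cluster, rose by 0.87 ± 0.16 on Geltrex™ (adjusted p = 0.000439) and fell by 1.25 on fibronectin (adjusted p = 3.54e-05). The call of *Cxcl1* on fibronectin (log2 -0.64 ± 0.20, adjusted p = 0.0226) was lost without Control replicate 1 (0.0735) or 3 (0.0531) and without fibronectin replicate 1 (0.102) or 2 (0.0878). *Cxcl5*, a neutrophil chemokine, rose by 2.71 ± 0.15 on Geltrex™ (adjusted p = 6.22e-09), *Cxcl1*, another of that kind, by 1.88 ± 0.20 (adjusted p = 2.7e-06), and *Ptgs2*, which encodes cyclooxygenase-2, by 1.52 ± 0.15 (adjusted p = 1.1e-06). *Saa3*, an acute-phase gene, had 2, 1, and 3 counts in the control samples and 215, 209, and 198 counts on Geltrex™, and no fold is given against counts that low. Of the 8 leukocyte markers, *Cd14* had 144 to 306 counts and *Cd68* 17 to 35 counts in a library, while *Adgre1* and *Ptprc* were at or near 0. The summed list, most of which is *Cd14*, was at 8.16 to 9.35 CPM on Geltrex™ and 9.65 to 12.7 CPM in the control, and *Cd68* alone was at 1.40 CPM on Geltrex™ and 1.08 in the control as means with overlapping ranges. Their part in the levels of the target genes was not tested.

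**Figure D4:**
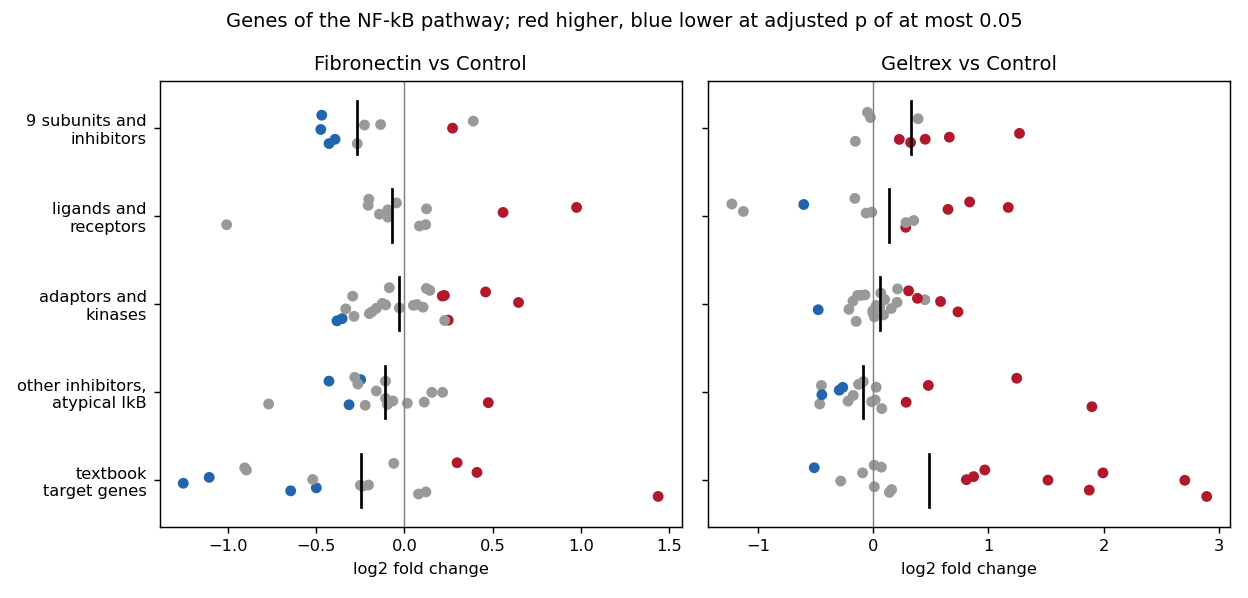
The panels plot the log2 fold change of single genes in 5 lists, for fibronectin and for Geltrex™ against the control, with the median over the genes drawn as a black bar. Red (higher) and blue (lower) mark genes that passed the test, and *Mmp9*, *Ptx3*, *Cxcl10*, *Saa3*, and *Ccl5* are not drawn because they passed the filter on low counts only through the Geltrex™ samples. On Geltrex™ the median of the textbook targets is 0.48 and that of the 9 subunits and inhibitors is 0.32.

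Genes with patterns most like those of *Tnfaip3* and *Nfkbia* over the 12 samples were sought by the root mean square (RMS) difference of log2 CPM, each gene centered on its own mean, among 12320 genes with a mean of at least 1 CPM. For *Tnfaip3*, whose own RMS deviation was 0.631, these were *Amotl2* at 0.138, *Xaf1* at 0.139, and *Cited2* at 0.188. *Amotl2* had mean levels of 115 CPM in the control, 141 on Collagen I, 102 on fibronectin, and 286 on Geltrex™, the same order of groups as *Tnfaip3*. For *Nfkbia*, with an RMS deviation of 0.391, they were *Plekha6* at 0.115, *Ubald1* at 0.117, and *Lbh* at 0.129. All 6 genes were lowest on fibronectin and highest on Geltrex™, like *Tnfaip3* and *Nfkbia*, which follows from their choice by likeness.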

How the data were processed

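Paired-end RNA-seq of 12 samples was used, 3 in each of 4 groups named by the sample titles. Per the labels and the methods, the authors used Trimmomatic for trimming, HISAT2 for alignment, and featureCounts for counting. What they deposited is raw counts per gene and sample, neither normalized nor pooled. Versions, genome build, annotation release, strand setting, and treatment of multiply mapped reads are not given in the sources used here. All 55536 gene identifiers matched GENCODE M21 (GRCm38), which gave names, positions, and lengths.

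The tests used edgeR 4.0.16 (R 4.3.3). Low counts were filtered by filterByExpr (minimum count 10, minimum total 15) and TMM scaled the libraries. A single quasi-likelihood fit of the 4 groups gave 6 comparisons, with Benjamini-Hochberg adjustment over 14499 genes. Genes with an adjusted p of at most 0.05 were called. The SE is the log2 fold change divided by the root of F. CPM per kb uses the length of the principal protein-coding transcript. Total counts of 22520404 to 27351766 per sample leave genes of few counts with wide errors, and floors of 3 counts cover counting error only.

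The members and the pathway, target, interferon, and cell type marker lists were chosen with earlier results of these data known. Besides the members, the text names genes of each list past a fold of 2 in any comparison with a mean of at least 1 CPM, up to 6 per list, and the 3 genes most like each of the 2 members with the widest range. Other genes given with a count were named after their values were seen. List genes that would not pass the filter in the 9 samples of the other groups were left out of the target and interferon counts, a choice made after seeing the data. Lists were counted, not tested as sets.

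Alternatives were DESeq2 1.42.0, RLE normalization, no filter, at least 10 counts in every sample, only the samples of the 2 groups, a replicate block, a fold of at least 2, and leaving out each sample. The sum of the 3 Geltrex™ samples was chosen after seeing the data. Scripts were tested on simulated data. Protein data were not analysed here.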

Additional observations from a re-analysis of the deposited data

How the results depend on the processing

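For the counts of members called, DESeq2, RLE normalization, both other filters, and the fits of only the 2 groups stayed within 1.5 times of the reported counts in all 6 comparisons. With a fold of at least 2 required, 0 members were called on fibronectin against the control and against Collagen I, and 1, *Tnfaip3*, on Geltrex™ against the control, Collagen I, and fibronectin. In a fit of the summed Geltrex™ samples, chosen after seeing the data, 1 member was called against the control and 3 against fibronectin. In that fit the single Geltrex™ sample is assumed to vary like the other groups. When each sample was left out in turn, the count ranged from 2 to 6 for fibronectin against the control and from 3 to 5 for Geltrex™ against Collagen I. The lowest count, 2, came without Control replicate 3, counts of 3 came without Control replicate 1 or fibronectin replicate 2, and the 5 came without Collagen I replicate 3. Beyond the calls already described, calls of single members changed with a few settings. With no filter, *Rela* on Geltrex™ (adjusted p = 0.0999) and *Nfkbie* on fibronectin (0.0768) against the control were lost, and *Rel* passed on fibronectin (0.0163) and on Geltrex™ (0.0175) against the control, as did *Nfkbia* on Geltrex™ against Collagen I (0.0189). With only the samples of the 2 groups, *Nfkbie* on fibronectin against the control (0.0525) and *Nfkbib* on fibronectin against Collagen I (0.0529) were lost, while *Nfkbie* on Geltrex™ against fibronectin (0.0387), *Rel* on Geltrex™ against the control (0.0214), and *Relb* on Geltrex™ against Collagen I (0.0317) passed. *Rela* on Geltrex™ against Collagen I passed with DESeq2 (0.0286) and with RLE normalization (0.0448). The cause of these changes was not tested.

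Over all members and settings, 614 values kept their direction and call, 31 lost and 12 gained the call, and 18 changed sign, all of them uncalled. *Rel* on Geltrex™ against fibronectin turned to 0.0082 with the stricter filter of 10 counts per sample, 0.0051 in the fit of 2 groups, and 0.022 with the replicate block, and ranged from -0.17 to 0.17 over the samples left out. *Nfkbib* on Collagen I against the control turned to -0.0018 with the block and ranged from -0.20 to 0.16. The other ranges over samples left out that crossed 0 were -0.029 to 0.11 for *Nfkb2* and -0.043 to 0.081 for *Rela* on Collagen I against the control, -0.14 to 0.0032 for *Nfkb2* and -0.076 to 0.060 for *Nfkbie* on Geltrex™ against the control, and -0.31 to 0.035 for *Nfkbib* on Geltrex™ against Collagen I.

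Same-numbered samples of fibronectin and Collagen I deviated together with correlations of 0.0473, 0.169, and 0.225. The mean of these was 0.147, against -0.0732 for samples of different numbers. In none of the 6 comparisons was each of the 3 correlations over 0.1. With 3 samples a group, such correlations cannot settle whether same-numbered samples were handled together. With the replicate number as a block, 0 members were called on Collagen I, 5 on fibronectin, and 5 on Geltrex™ against the control, 7 on fibronectin and 3 on Geltrex™ against Collagen I, and 5 on Geltrex™ against fibronectin, and no call of a member changed.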

Other observations

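Interferon-stimulated genes, which respond to a pathway that crosses NF-kB at several points, were counted alongside. Of 13 such genes 11 passed the filter, but *Oas2*, *Usp18*, and *Isg15* passed only through the Geltrex™ samples, where they were high, and are left out of the counts. Of the remaining 8, 7 were higher on Geltrex™ against the control and 1, *Stat2*, was lower, with a median log2 fold change of 2.54, where 33.0% of all genes tested were called and 16.4% were higher. On fibronectin against the control 1 of the 8, *Ifih1*, was higher and none lower, where 31.9% of all genes tested were called. *Stat2* and *Ifih1* were named after their values were seen. *Ifit3*, which encodes an antiviral protein, was at 2.70, 2.79, and 2.93 CPM in the control and 19.0, 20.8, and 31.5 CPM on Geltrex™ (log2 3.08 ± 0.19, adjusted p = 1.14e-08, edgeR). *Ifit1*, of the same family, was at 0.358, 0.183, and 0.849 CPM in the control and 19.7, 22.3, and 37.2 CPM on Geltrex™ (log2 5.86 ± 0.39, adjusted p = 2.28e-08). *Mx2* rose by 2.31 ± 0.37 on the log2 scale in the same comparison (adjusted p = 0.000189). *Usp18* had 1 to 6 counts in the control samples and 75 to 133 on Geltrex™, and *Isg15* had 2 to 5 and 84 to 113, and no fold is given against counts that low. *Oas2* had 0, 0, and 1 counts in the control samples, 0 in every Collagen I sample, and 105, 141, and 167 on Geltrex™. No fold is given for it either. For *Ifit1*, *Ifit3*, *Usp18*, *Isg15*, and *Mx2*, Geltrex™ replicate 3 was the highest of its group.

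All values are transcript levels, and neither the place of NF-kB in the cell, its binding to DNA, nor the amount of any inhibitor protein was measured in these files.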
